A study of Mus musculus with 6 samples.

Results

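Tgm2 encodes transglutaminase 2, and it was a gene with steady ribosome-protected fragments in the libraries labelled WT and almost none in the libraries labelled KO. It was chosen by its identifier, ENSMUSG00000037820, as 1 row of the 53465 genes in the deposited count table, and it was singled out because of this difference, so its own values are a description with no test. Ribosome profiling sequences the pieces of mRNA that ribosomes shield from nuclease, so a count combines the amount of an mRNA with its occupancy by ribosomes. The KO group is ID8, a cancer line from mouse ovarian surface epithelium, taken here to carry the guide RNA against Nat10 (sgNat10). The WT group is ID8, taken to carry the control guide (sgNC). The sample labels say only KO and WT, the guides are named in the study's design, and matching them is an assumption. Both groups were treated with cycloheximide for 2 minutes before harvest. There were 3 libraries per group, with 2234305 to 3126208 counts in KO and 1687466 to 2148715 counts in WT. Whether a group was 1 clone or a mixed population, and whether replicates were separate cultures, is stated by no source used here, so a p-value covers the spread between these libraries alone.

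Transglutaminase 2 is a calcium-dependent enzyme that joins glutamine to lysine side chains and so crosslinks proteins. Inside the cell it also binds GTP, which holds the enzyme in a closed, inactive form. A part of it reaches the cell surface, where it binds fibronectin and integrins and helps cells attach to the matrix. Its gene is known for strong induction by retinoic acid, and also responds to NF-κB, TGF-β and hypoxia. In ovarian cancer it has been studied for cell adhesion, spread in the peritoneum and resistance to cisplatin.

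Tgm2 lies on the minus strand of chromosome 2, from 158116402 to 158146436 in GRCm38, and GENCODE M21 lists 4 transcripts. The main transcript has 13 exons, all with coding sequence, and an mRNA of 3596 nt. Its coding sequence is 2058 nt long without the stop codon, or 686 codons, between a 5′ UTR of 136 nt and a 3′ UTR of 1399 nt. The catalytic cysteine is codon 277, in the sixth exon. The sequences around this codon are shown so that the catalytic part of the gene can be set beside that of its relatives. Each is 30 nt of coding sequence from GENCODE M21, about the size of a ribosome footprint, written 5′ to 3′ with the codon of the catalytic position in capitals.
Tgm2: aagtacgggcagTGCtgggtgtttgcagcg
Tgm1: ccctacggccaaTGCtgggtctttgccggt
Tgm3: caatttggccagTGCtgggtctttgctgga
Tgm5: cgctatgggcaaTGCtgggtctttgctgct
F13a1: cgatatggccagTGTtgggtttttgctggt
Epb42: tatgagacccagGCGtgggtgtctgctgct
The Tgm2 stretch lies at chr2:158131344-158131373. Tgm1, which works in the epidermis, matched it at 21 of 30 bases and Tgm3, also of the epidermis and hair, at 21. Tgm5 matched at 22, and F13a1, the A chain of clotting factor XIII, at 20. Epb42, the erythrocyte protein band 4.2, has no transglutaminase activity and matched at 17. In Tgm1, Tgm3 and Tgm5 the capitals spell the same cysteine codon, in F13a1 the other cysteine codon, and in Epb42 a codon for another residue.

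The longest run of identical coding sequence between Tgm2 and another member of the family was 17 nt, with Tgm5. The shortest fragments kept by the authors were 25 nt, so no whole fragment of Tgm2 coding sequence matches the coding sequence of a relative. Of its 2034 coding windows of 25 nt, 233 also occurred in the transcripts of another gene, and all of these were antisense. They belong to 1 exon of a transcript of Rprd1b, a gene on the opposite strand that regulates RNA polymerase II, and to the noncoding gene Gm20412. The Rprd1b exon covers bases 158131331 to 158131508, which include the catalytic codon, and Gm20412 covers coding bases 158117804 to 158117905. Together they lie opposite 13.6% of the coding sequence, and no source used here gives the strand setting of the counting. In that stretch, reads of Tgm2 and of these antisense genes cannot be told apart without strand. Gm20412 itself had 0 counts in all 6 libraries, and Rprd1b had 39, 0 and 0 counts in KO libraries 1, 2 and 3 and 29, 0 and 54 counts in WT libraries 1, 2 and 3.

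Counts of Tgm2 were 0, 8 and 5 in KO libraries 1, 2 and 3, against 426, 498 and 420 in WT libraries 1, 2 and 3. Every KO library was low and every WT library was high, with no overlap. Scaled to library size, the KO libraries had 0, 3.43 and 1.55 CPM, against 259, 249 and 243 CPM in WT libraries 1, 2 and 3. CPM is the count relative to library size, scaled by TMM, which corrects for differences in library composition. Means were 1.66 ± 1.72 CPM in KO and 250.2 ± 8.19 CPM in WT (SD, n = 3 each). The bulk counts cannot tell fewer cells with Tgm2 mRNA from less occupied mRNA per cell.

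**Figure D1:**
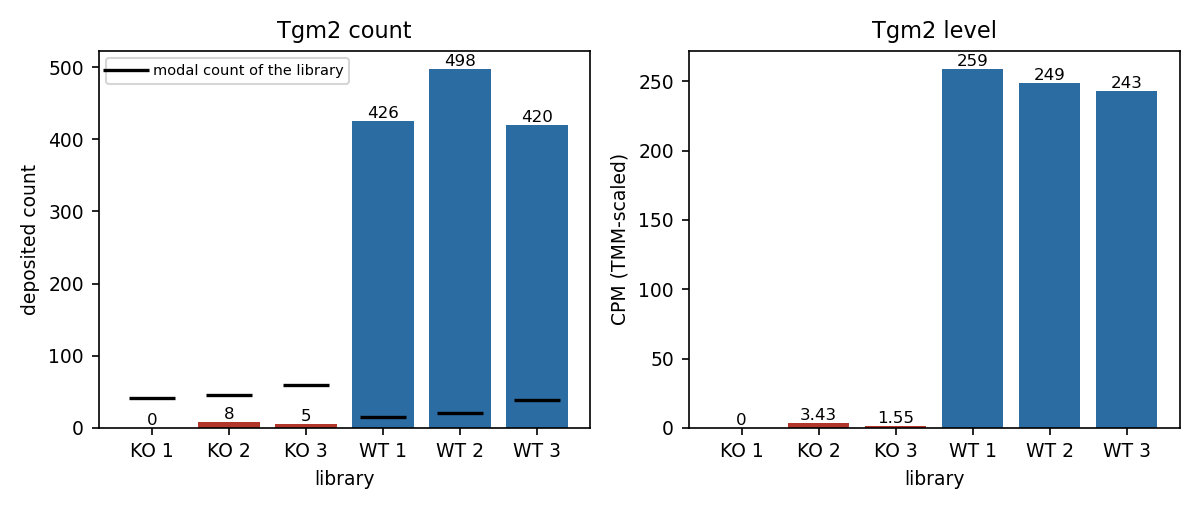
Tgm2 in each library as deposited counts (left) and as TMM-scaled CPM (right), KO libraries in red and WT libraries in blue; black dashes mark the modal count of each library. The KO bars of 0, 8 and 5 counts lie under their dashes and the WT bars of 426, 498 and 420 counts lie far above theirs.

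The size of this difference is bounded by how the counts are built. In each library the histogram of gene counts has a peak well above single reads, called the modal count, at 42, 46 and 60 in the KO libraries and 15, 21 and 39 in the WT libraries. All 3 KO counts of Tgm2 lay below it, at 0.174 modal counts or less, against 28.4, 23.7 and 10.8 modal counts in the WT libraries. The KO mean CPM was 151-fold lower than the WT mean. That ratio rests on 13 KO counts in all, and it was 323-fold without KO replicate 2 and 101-fold without KO replicate 1. If each KO library is set at 1 modal count, which is above its measured value, the KO level is still 13.7-fold lower than the WT mean. The edgeR fit gave a log2 fold change of -7.22 for KO minus WT (SE 0.70).

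The WT level was moderately high. The count of Tgm2 ranked between 647 and 676 in the WT libraries, above 91.9% to 93.1% of the genes with a count. Per kilobase of coding sequence the mean level was 0.806 ± 0.833 CPM in KO and 122 ± 3.98 CPM in WT (SD, n = 3 each). Among the 8087 tested protein-coding genes this placed it at rank 8004 in KO and rank 1105 in WT. Its coding sequence was 57.7% GC, more than in 81.2% of those genes. The triplet CCG, in which N4-acetylcytidine sits in the ribosomal RNA of the small subunit and whose acetylation is the work of NAT10, occurred 15.5 times per kilobase of coding sequence (sense strand, overlaps counted), against a median of 9.01. That was more than in 84.5% of the tested protein-coding genes, and no acetylation was measured here.

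Nat10 itself, the gene that the study targeted, did not separate the groups. Its counts were 315, 133 and 445 in KO libraries 1, 2 and 3 and 168, 128 and 292 in WT libraries 1, 2 and 3. Its level was 106 ± 43.1 CPM in KO and 111.6 ± 53.1 CPM in WT (SD, n = 3 each), a log2 fold change of -0.074 (SE 0.48; edgeR adjusted p = 1). No source used here gives where the guide cuts, and an edit can leave Nat10 mRNA that ribosomes still occupy. All directions are those of the libraries labelled KO. Calls here and below are from edgeR's quasi-likelihood test over 8200 tested genes with Benjamini-Hochberg adjustment at 0.05. The test called 33 genes or 0.402%, 15 higher in KO (0.183%) and 18 lower (0.22%). Shares of all tested genes, here and below, cover genes of every level and are not matched to the level of a list.

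The tested markers of the labelled line had counts in both groups. Of 15 markers of mesothelium and ovarian surface epithelium, 8 were tested. Of these 1 rose, against 0.183% of all tested genes, and 2 fell, against 0.22%, shares not matched to the level of this list. Every KO library lay above every WT library in 2, against 6.94% of all tested genes, and below in 3, against 7.93%. The summed level of the 15 markers was 4860 to 5662 CPM in KO and 6342 to 6862 CPM in WT. Msln, a surface protein of mesothelium, rose to 1636 ± 209 CPM in KO, against 789 ± 83.5 CPM in WT (edgeR adjusted p = 0.0145). Krt19, a simple epithelial keratin, fell to 2223 ± 32.1 CPM in KO, against 4202 ± 203 CPM in WT (SD, n = 3 each; edgeR adjusted p = 0.0044). The call of Msln ended without WT replicate 2 (0.108), WT replicate 3 (0.107), KO replicate 1 (0.0884) or KO replicate 2 (0.0635), and that of Krt19 without WT replicate 2 (0.0683) or WT replicate 3 (0.0755), all edgeR adjusted p. The other marker that fell was Krt18, given with the intracellular proteins below. Upk1b, a tetraspanin of mesothelium and urothelium, averaged 595 ± 155 CPM in KO and 342 ± 24.0 CPM in WT and did not pass (edgeR adjusted p = 0.304; 0.0104 by DESeq2). Epcam and Nr2f1 had 0 counts in every library. Cdh1, Muc16, Lrrn4, Krt7 and Lhx9, all untested, had 0 counts in every KO library and low counts in WT. In WT libraries 1, 2 and 3, Cdh1 had 50, 14 and 0 counts and Muc16 had 12, 17 and 0. Lrrn4 had 12, 3 and 0, Krt7 had 6, 0 and 0, and Lhx9 had 0, 24 and 0. Of 11 leukocyte and macrophage markers 1 was tested, and their summed level was 5.99 to 9.31 CPM in KO and 0 to 43.5 CPM in WT. Cd3e, Itgam and Tyrobp were at 0 in all libraries, and the tested marker was Cd14, a coreceptor for lipopolysaccharide. Of 10 endothelial and fibroblast markers 1 was tested, Pdpn, which mesothelium also makes, and their summed level was 204.7 to 317.7 CPM in KO and 174 to 211.6 CPM in WT. The part of these marker levels in the difference in Tgm2 was not tested.

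Among genes read at the same level in WT, Tgm2 stood at the low end. There were 629 other tested genes whose mean WT level lay within 1.5-fold of that of Tgm2, between 166.8 and 373.3 CPM. Their median KO level was 220.6 CPM and the lowest was 20.8 CPM, against 1.66 CPM for Tgm2. The difference of log2(mean CPM + 1), KO minus WT, was -6.56 for Tgm2. For the others it had a median of -0.11, a 10th percentile of -0.79, a 90th percentile of 0.42, a lowest value of -3.60 and a highest value of 2.71. Tgm2 ranked 1 of 630, lowest first, and kept this rank in all settings tried for the window and the scale and without any 1 library. The gene was chosen for being low in KO, so the rank is a description.

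**Figure D2:**
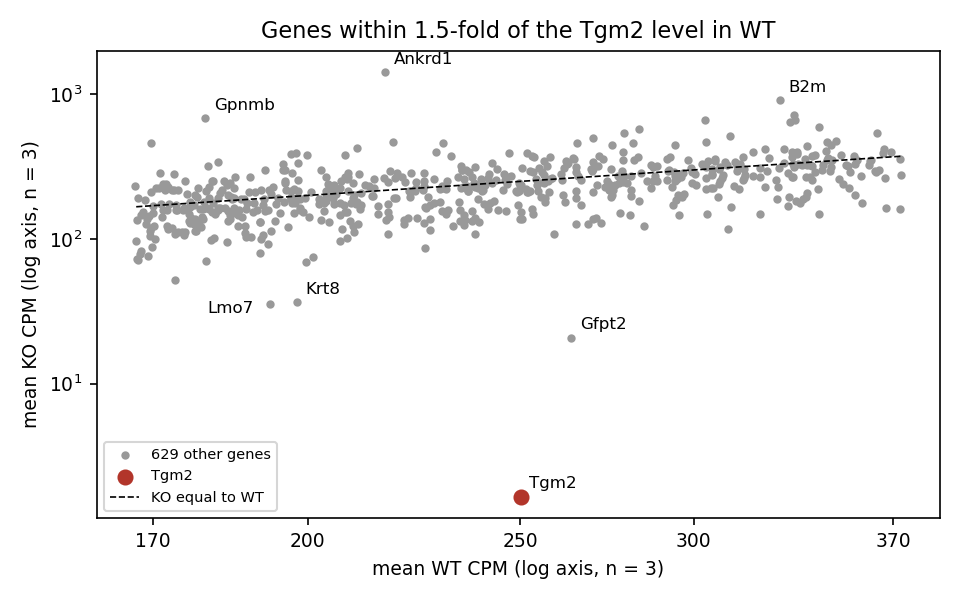
Mean KO CPM against mean WT CPM (both log axes, n = 3 libraries each) for Tgm2 (red) and the 629 other tested genes within 1.5-fold of its WT level (grey), with the dashed line at equal levels. Tgm2 lies at 1.66 CPM in KO, below the lowest of the others, Gfpt2, at 20.8 CPM.

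Of the 629, 3 were at least 4-fold lower in KO, none at least 16-fold lower, and 1 at least 4-fold higher. The lowest was Gfpt2, an enzyme that starts the hexosamine pathway, with 42.9, 1.71 and 17.7 CPM in KO libraries 1, 2 and 3 and 207 to 347 CPM in the WT libraries. It was the 1 gene of the 629 called lower in KO, against 0.22% of all tested genes (log2 fold change -3.66, SE 0.71; edgeR adjusted p = 0.036). That call ended without WT replicate 1 (0.103), WT replicate 2 (0.205), WT replicate 3 (0.252) or KO replicate 3 (0.218), all adjusted p from edgeR, with a minimum of 50 counts in 3 libraries (0.0945), with a replicate block (0.0595) and in limma-voom (0.131). Next came Lmo7, an actin-binding protein of cell junctions, at 35.3 ± 30.1 CPM in KO and 192.2 ± 18.0 CPM in WT, and the keratin Krt8 at 36.6 ± 39.0 CPM in KO and 197.8 ± 46.2 CPM in WT. Ptcd3, a protein of the mitochondrial ribosome, averaged 51.8 ± 34.6 CPM in KO and 173.9 ± 41.5 CPM in WT, and Rrp1, a ribosome biogenesis protein, averaged 69.2 ± 16.2 CPM in KO and 199.7 ± 10.9 CPM in WT (SD, n = 3 each). None of these 4 passed edgeR's test in the main fit (edgeR adjusted p 0.433, 0.51, 0.286 and 0.0967, in the order given), but DESeq2 called Ptcd3 (0.0133) and Rrp1 (0.000381). With no count filter, edgeR called Lmo7 (0.0298), Ptcd3 (0.0298) and Rrp1 (0.0412). With counts divided by the modal count it called Rrp1 (0.0251).

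At the other end, 5 of the 629 were called higher in KO, against 0.183% of all tested genes, a share not matched for level. Ankrd1, a muscle ankyrin repeat protein induced by YAP, rose to 1426 ± 179 CPM in KO, against 217 ± 47.9 CPM in WT (SD, n = 3 each; edgeR adjusted p = 3.34e-05). Gpnmb, a lysosomal and surface glycoprotein, rose to 683 ± 196 CPM in KO, against 179.6 ± 36.2 CPM in WT (edgeR adjusted p = 0.00407). B2m, which pairs with MHC class I heavy chains, rose to 908 ± 20.9 CPM in KO, against 328.5 ± 52.4 CPM in WT (edgeR adjusted p = 0.00407). The calls of Gpnmb and B2m ended without WT replicate 2 (edgeR adjusted p = 0.0683 for both), and that of Gpnmb also without WT replicate 3 (0.0608).

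Every KO library lay below every WT library in 91 of the 629, against 7.93% of all tested genes, and every KO library lay above in 42, against 6.94%. At least 1 KO library under its modal count occurred in 3 of the 629, and all 3 KO libraries under it in 0. In WT the level of Tgm2 varied little, with a coefficient of variation of 3.27% against a median of 21.9% in the others, of which 10 were lower. The 4 genes just below and the 4 just above Tgm2 in mean WT level averaged between 137.8 and 308.7 CPM in KO. Pcna, the sliding clamp of DNA replication, averaged 214.1 ± 74.4 CPM in KO and 249.8 ± 29.3 CPM in WT, and Mthfd1, a folate enzyme, averaged 243 ± 21.3 CPM in KO and 249.6 ± 95.8 CPM in WT. Capg, an actin-capping protein, averaged 138.4 ± 62.2 CPM in KO and 249.9 ± 32.0 CPM in WT, and Tuba1c, an alpha-tubulin, averaged 137.8 ± 51.7 CPM in KO and 250.6 ± 21.98 CPM in WT. Others were the membrane glycoprotein Gpm6a at 235.8 CPM, the splicing factor Sf1 at 236.3 CPM and Tnfaip2 at 308.7 CPM, all means in KO. None of the 8 genes passed the test (lowest edgeR adjusted p = 0.547, Tuba1c).

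The pattern of Tgm2, high in all 3 WT libraries and under the modal count in all 3 KO libraries, was met by few genes of the table. Genes of this set and of its opposite were picked by their KO and WT counts. Their adjusted p-values rest on the same counts and are a description. Of 1498 genes with at least 5 modal counts in every WT library, 2 (0.134%) were under 1 modal count in every KO library, Tgm2 and Scel. Without WT replicate 3, whose modal count is the highest of the WT libraries, there were 11 such genes. Scel, sciellin, a precursor of the cornified envelope and so a protein that transglutaminases can crosslink, had 4, 2 and 58 counts in KO libraries 1, 2 and 3 and 158, 281 and 218 counts in WT libraries 1, 2 and 3. Its KO libraries all lay below its WT libraries, at 6.80 ± 9.70 CPM in KO and 120.8 ± 22.6 CPM in WT (SD, n = 3 each). It did not pass the test (edgeR adjusted p = 0.0742). The edgeR adjusted p was 0.00401 without KO replicate 3, 0.0173 with the replicate block and 8.87e-06 with no count filter. By DESeq2 the adjusted p was 2.18e-05. In the opposite direction, of 1321 genes with at least 5 modal counts in every KO library, 1 (0.0757%) was under 1 modal count in every WT library. This was Inhba, the activin A subunit, with 239, 274 and 417 counts in KO libraries 1, 2 and 3 and 0, 17 and 0 counts in WT libraries 1, 2 and 3 (edgeR adjusted p = 0.0646). The edgeR adjusted p of Inhba was 0.00775 without WT replicate 2 and 0.0292 with the replicate block. It was 0.045 with library totals and 3.8e-07 with no count filter.

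A lower requirement of 3 modal counts in WT added Cyp2j6, Pltp and Hyls1, which are named after their values were seen. They too were picked by their KO and WT counts, so their fold changes and adjusted p-values are a description. Pltp, phospholipid transfer protein, had 0, 0 and 1 counts in KO libraries 1, 2 and 3 and 87, 152 and 133 counts in WT libraries 1, 2 and 3 (log2 fold change -8.63, SE 1.39; edgeR adjusted p = 0.00989). Cyp2j6, a cytochrome P450, had 1, 2 and 0 counts in KO libraries 1, 2 and 3 and 117, 121 and 138 counts in WT libraries 1, 2 and 3 (log2 fold change -7.30, SE 1.28; edgeR adjusted p = 0.0186). Both calls ended when single libraries were left out. Without WT replicate 2 the edgeR adjusted p was 0.214 for Pltp and 0.205 for Cyp2j6, and without WT replicate 3 it was 0.11 for Pltp and 0.181 for Cyp2j6. For Cyp2j6 it was also 0.128 without WT replicate 1 and 0.0614 without KO replicate 1. In limma-voom the adjusted p was 0.0976 for Pltp and 0.165 for Cyp2j6. Hyls1, a centriole protein, averaged 10.5 ± 9.15 CPM in KO and 53.6 ± 29.4 CPM in WT and did not pass (edgeR adjusted p = 0.958). With at least 10 modal counts in WT, Tgm2 was the only gene left.

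None of the other tested genes around Tgm2 was called by edgeR. Within 1 Mb on either side, from 157116402 to 159146436 on chromosome 2, the table holds 55 other annotated genes, of which 25 are protein-coding, 17 had a count and 13 were tested. Of the 13, edgeR called 0, against 0.402% of all tested genes, 1 had an unadjusted p under 0.05, against 6.49%, and DESeq2 called 1 lower in KO, against 1.59%. Their median log2 fold change was 0.23, with 6 negative and 7 positive values.

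**Figure D3:**
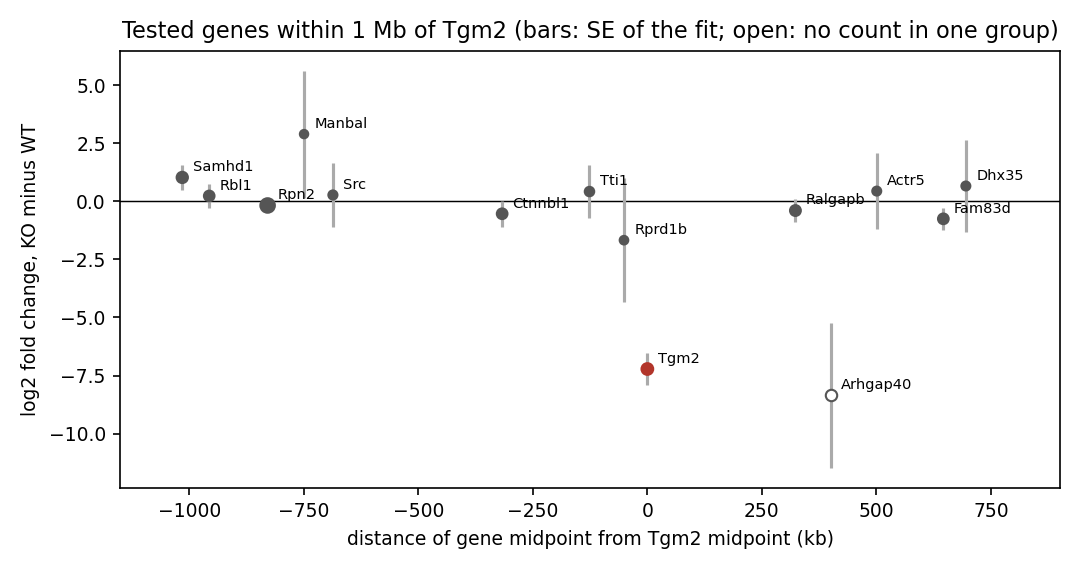
Log2 fold change, KO minus WT, of Tgm2 (red) and the 13 other tested genes within 1 Mb against the distance of their midpoint from that of Tgm2 in kb, with larger points for higher levels; bars are the SE of the fit, and the open point marks a gene with no count in KO. Tgm2 lies at -7.22, and apart from Arhgap40, the open point, the lowest neighbour is Rprd1b at -1.67.

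Rprd1b, whose end overlaps Tgm2 on the other strand, averaged 5.07 ± 8.78 CPM in KO and 16.3 ± 15.7 CPM in WT (SD, n = 3 each), with overlapping groups. Tti1, a cofactor of PI3K-related kinases that lies 87969 bases away, averaged 33.9 ± 25.7 CPM in KO and 25.3 ± 25.0 CPM in WT. Ctnnbl1, a splicing-associated protein, averaged 57.5 ± 16.7 CPM in KO and 83.3 ± 42.1 CPM in WT. On the other side, Ralgapb, a subunit of a Ral GTPase-activating complex, averaged 79.3 ± 36.8 CPM in KO and 104.4 ± 26.8 CPM in WT. Arhgap40, a GTPase-activating protein 366360 bases away, had 0, 0 and 0 counts in KO libraries 1, 2 and 3 and 8, 30 and 60 counts in WT libraries 1, 2 and 3. It was the gene DESeq2 called (adjusted p = 0.0283), while edgeR did not (adjusted p = 0.547). Its WT counts compare with the modal counts of 15, 21 and 39 of those libraries. The untested neighbours with counts went both ways. In libraries 1, 2 and 3, Lbp, 160057 bases away, had 0, 2 and 0 counts in KO and 34, 87 and 0 in WT. Blcap had 33, 0 and 1 counts in KO and 0 in every WT library. Snhg17 had 1, 0 and 65 counts in KO and 0, 18 and 0 in WT, and Gm24379 had 1 count, in WT.

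Farther out, Rpn2, a subunit of oligosaccharyltransferase, was the most abundant neighbour and averaged 494 ± 154 CPM in KO and 558 ± 91.1 CPM in WT. Fam83d, a spindle protein, averaged 58.3 ± 16.9 CPM in KO and 98.3 ± 17.3 CPM in WT (edgeR adjusted p = 1). Besides Tgm2 and Arhgap40, it was the only tested gene of the window with every KO library below every WT library. Of all tested genes, 7.93% had that pattern. Rbl1, a relative of the retinoblastoma protein, averaged 80.9 ± 39.2 CPM in KO and 68.8 ± 12.8 CPM in WT. The tyrosine kinase Src averaged 24.1 ± 13.1 CPM in KO and 19.9 ± 8.31 CPM in WT. The chromatin remodelling subunit Actr5 at 20.3 CPM, the helicase Dhx35 at 20.8 CPM and Manbal at 13.6 CPM, all means in KO, were likewise low in both groups, and none passed the test.

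No other transglutaminase gene was read in these cells. Tgm1, Tgm3, Tgm4, Tgm5, Tgm6, Tgm7, F13a1 and Epb42 had 0 counts in all 6 libraries. If counts were independent, this would allow up to 3 counts over the 3 libraries of a group. The modal counts of 15 to 60 show that counts pile up, so that limit is too low. The Tgm2 counts of 0, 8 and 5 in KO and 426, 498 and 420 in WT were therefore the whole count of the family.

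Proteins that transglutaminase 2 binds, crosslinks or is switched by inside the cell had negative log2 fold changes in most cases. Of 26 such genes 25 were tested, 20 had a negative and 5 a positive log2 fold change, and the median was -0.36, against -0.016 over all tested genes. edgeR called 3 lower, against 0.22% of all tested genes, and 0 higher, against 0.183%. The 3 called genes averaged over 200 CPM in WT. In simulated counts, 97% of 4-fold changes were recovered at 200 CPM or more, against 17.6% at all levels. The share of 0.22% is therefore not matched to the level of this list. Every KO library lay below every WT library in 7, against 7.93% of all tested genes, and above in 1, against 6.94%. The summed level was 22567 to 24743 CPM in KO and 26819 to 27943 CPM in WT.

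Txn1, thioredoxin, which in human cells activates transglutaminase 2 by reducing a disulfide bond, had 207.5, 232.1 and 251.6 CPM in KO libraries 1, 2 and 3, against 822.7, 696 and 926.8 CPM in WT libraries 1, 2 and 3. All KO values lay below all WT values, and Txn1 fell (log2 fold change -1.82, SE 0.22; edgeR adjusted p = 0.000979), a call it kept in all 14 other settings. Hspa5, the chaperone BiP of the endoplasmic reticulum, fell to 2178 ± 114 CPM in KO, against 4288 ± 249 CPM in WT (SD, n = 3 each; edgeR adjusted p = 0.00404). Its call ended without WT replicate 2 (0.0589) and without WT replicate 3 (0.0697). Krt18, a keratin that the enzyme crosslinks in liver, fell to 154.5 ± 53.5 CPM in KO, against 514.8 ± 123 CPM in WT (edgeR adjusted p = 0.0195). Its call ended in 6 of 14 settings, with a minimum of 50 counts in 3 libraries (0.0517) and without WT replicate 2 (0.216), WT replicate 3 (0.0851), KO replicate 1 (0.0884), KO replicate 2 (0.0558) and KO replicate 3 (0.0676).

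Calr, calreticulin, which binds transglutaminase 2 and holds its GTP activity in check, averaged 1861 ± 284 CPM in KO and 3023 ± 305 CPM in WT and did not pass (edgeR adjusted p = 0.0742; 0.00101 by DESeq2). Vim, the intermediate filament vimentin and a known substrate, went the other way at 3660 ± 319 CPM in KO and 2802 ± 29.5 CPM in WT (SD, n = 3 each; edgeR adjusted p = 0.479; 0.0492 by DESeq2).

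**Figure D4:**
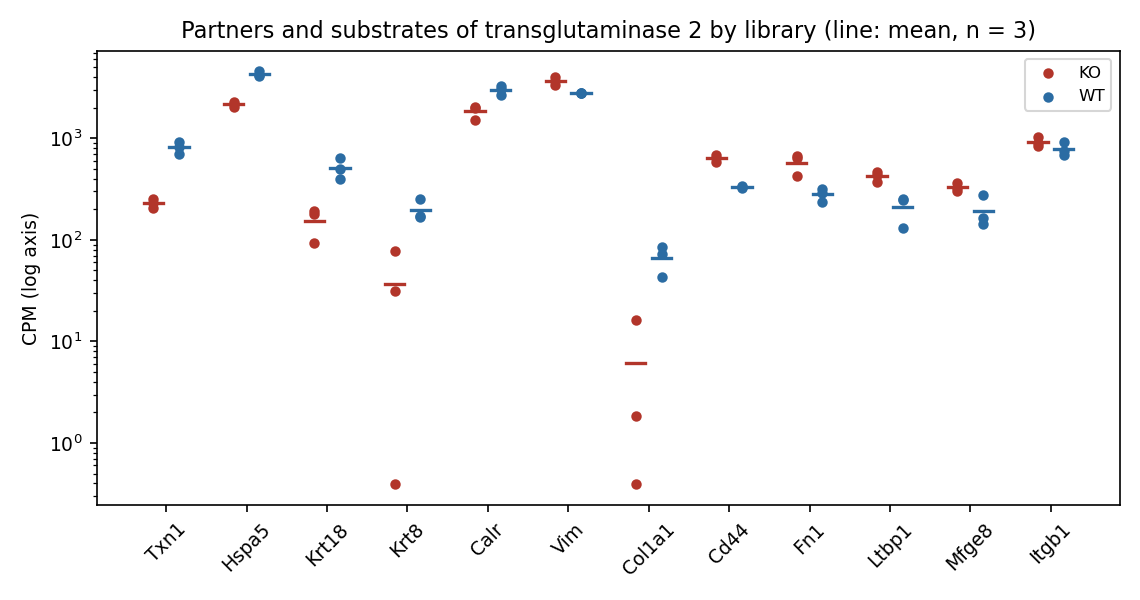
CPM (log axis) of 12 partners and substrates of transglutaminase 2 in each KO library (red, left of each pair) and WT library (blue), with a line at the mean of 3. Txn1, Hspa5 and Krt18 passed the test, and all 3 have their KO points below their WT points.

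The partners at the cell surface and in the matrix had mostly positive log2 fold changes, and edgeR called 0, against 0.402% of all tested genes. Of 32 genes 22 were tested, with 16 positive and 6 negative log2 fold changes and a median of 0.24. At an unadjusted p under 0.05 there were 5, against 6.49% of all tested genes, and DESeq2 called 3 higher and 1 lower, against 1.3% and 1.59% of all tested genes. Every KO library lay above every WT library in 6, against 6.94% of all tested genes, and below in 2, against 7.93%. Cd44, the hyaluronan receptor, had 644, 590 and 690 CPM in KO libraries 1, 2 and 3 and 323, 340 and 332 CPM in WT libraries 1, 2 and 3, with no overlap (log2 fold change 0.95, SE 0.21; edgeR adjusted p = 0.0657; 1.06e-05 by DESeq2). Cd44 also passed in edgeR with library totals (0.0302), with no count filter (0.0305) and with molecule equivalents, which are counts divided by the modal count (0.00186). Fn1, fibronectin, the main matrix ligand of transglutaminase 2, had 425, 664 and 644 CPM in KO libraries 1, 2 and 3 and 321, 292 and 237 CPM in WT libraries 1, 2 and 3 (log2 fold change 1.03, SE 0.25; edgeR adjusted p = 0.108; 0.000421 by DESeq2). Ltbp1, which the enzyme crosslinks into the matrix together with latent TGF-β, averaged 426 ± 50.7 CPM in KO and 210.7 ± 69.4 CPM in WT (SD, n = 3 each; edgeR adjusted p = 0.269; 0.00543 by DESeq2). Mfge8, which bridges dying cells to integrins, averaged 332 ± 31.1 CPM in KO and 194.9 ± 69.6 CPM in WT (edgeR adjusted p = 0.555).

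Of the 2 genes with every KO library below every WT library, Col1a1, a chain of collagen I, had 1, 38 and 6 counts in KO libraries 1, 2 and 3 and 120, 171 and 74 counts in WT libraries 1, 2 and 3 (log2 fold change -3.44, SE 1.19; edgeR adjusted p = 0.479; 0.0246 by DESeq2). The other was Itgb3, an integrin subunit named after its values were seen, with 41, 0 and 0 counts in KO libraries 1, 2 and 3 and 68, 47 and 69 counts in WT libraries 1, 2 and 3 (log2 fold change -2.70, SE 2.01; edgeR adjusted p = 1). Itgb1, the integrin subunit that carries transglutaminase 2 to fibronectin, was also named after its values were seen. It averaged 921 ± 104 CPM in KO and 786 ± 115 CPM in WT, and the groups overlapped (SD, n = 3 each; edgeR adjusted p = 1).

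Known regulators of the gene were not called by edgeR. In simulated counts, 17.6% of 4-fold changes were recovered at all levels, so 0 calls do not show that these regulators were unchanged. Of 26 genes of the retinoid pathway 11 were tested, with 6 positive and 5 negative log2 fold changes and a median of 0.19. edgeR called 0, against 0.402% of all tested genes, and 4 had an unadjusted p under 0.05, against 6.49%. DESeq2 called 1 higher, against 1.3%, and 1 lower, against 1.59%. The corepressor Ncor1 averaged 386 ± 62.0 CPM in KO and 196.4 ± 124 CPM in WT (SD, n = 3 each; edgeR adjusted p = 0.547; 0.0355 without WT replicate 1). Dhrs3, which turns retinaldehyde back into retinol, had 21, 2 and 17 counts in KO libraries 1, 2 and 3 and 114, 161 and 44 counts in WT libraries 1, 2 and 3 (edgeR adjusted p = 0.433; 0.00781 by DESeq2). The coactivator Ncoa3 averaged 19.8 ± 18.5 CPM in KO and 110.2 ± 14.5 CPM in WT (edgeR adjusted p = 0.57, or 0.0334 with no count filter). Aldh1a1, which makes retinoic acid, averaged 220.6 ± 40.5 CPM in KO and 314.7 ± 45.5 CPM in WT, with overlapping groups (edgeR adjusted p = 0.878).

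Of 31 other inducers and transcription regulators of the gene, among them those of the NF-κB, hypoxia, TGF-β and AP-1 pathways, 27 were tested. They had 13 positive and 14 negative log2 fold changes and a median of -0.018. In both directions together, edgeR called 0, against 0.402% of all tested genes, and DESeq2 called 0, against 2.89%. At an unadjusted p under 0.05 there was 1 gene, against 6.49%. That gene was Il6st, the shared receptor chain of the interleukin 6 family, with 155.7 ± 112 CPM in KO and 55.4 ± 35.6 CPM in WT (SD, n = 3 each; edgeR adjusted p = 0.704). Junb, an AP-1 subunit, averaged 76.4 ± 12.6 CPM in KO and 34.5 ± 11.8 CPM in WT, and Zeb2, a repressor of epithelial genes, averaged 51.6 ± 14.9 CPM in KO and 29.0 ± 8.39 CPM in WT. The deacetylase Hdac3 averaged 37.5 ± 14.2 CPM in KO and 60.5 ± 18.1 CPM in WT, and the transcription factor Sp3 averaged 74.2 ± 18.1 CPM in KO and 101.1 ± 12.5 CPM in WT.

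The genes most like Tgm2 over the 6 libraries were ranked by Pearson r of log2 CPM with a prior count of 2, among 8006 protein-coding genes. With 6 libraries in 2 groups, r mostly reads the step between KO and WT and the spread inside each group, and it is a description. The highest were Psma6, a proteasome subunit, and Ilf2, a double-stranded RNA binding protein, both at 0.987. Psma6 had 207, 221 and 233 CPM in KO libraries 1, 2 and 3 and 398, 394 and 369 CPM in WT libraries 1, 2 and 3. Ilf2 had 86.6, 92.9 and 97.7 CPM in KO libraries 1, 2 and 3 and 128.9, 132.4 and 132.4 CPM in WT libraries 1, 2 and 3. In both the groups were tight and apart, but neither passed edgeR's test (adjusted p 0.304 for Psma6, 0.0101 by DESeq2, and 1 for Ilf2).

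**Figure D5:**
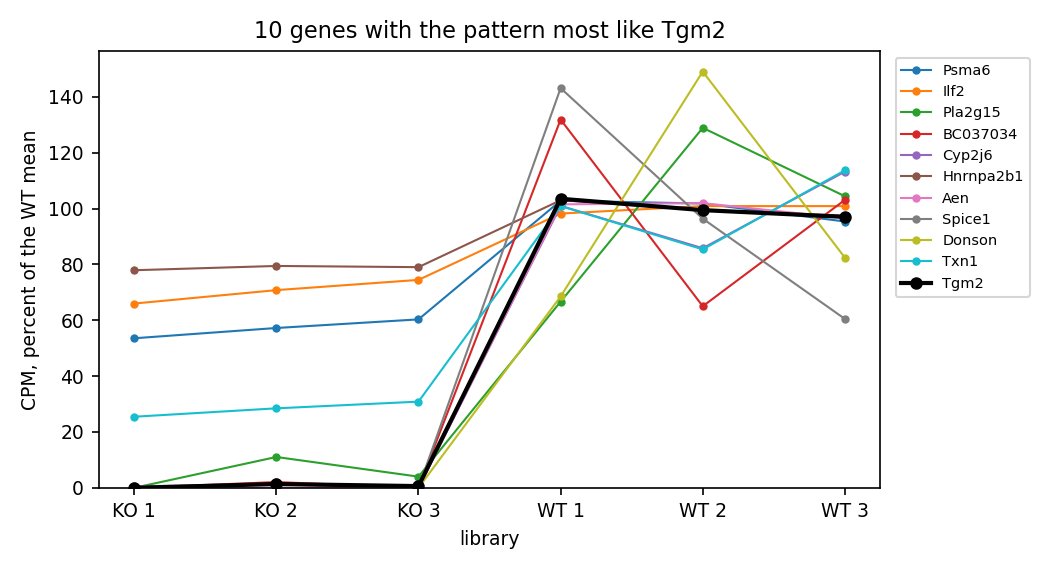
CPM in each library as a percent of the gene's own WT mean for Tgm2 (black) and the 10 genes with the highest Pearson r to it. Tgm2, Cyp2j6, Aen, Spice1, Donson and BC037034 lie near 0 in the KO libraries, while Psma6, Ilf2, Hnrnpa2b1 and Txn1 keep a part of their level.

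The other 8 were Pla2g15, a lysosomal phospholipase, BC037034, Cyp2j6, Hnrnpa2b1, an RNA-binding protein, Aen, a nuclease induced by p53, the centriole protein Spice1, Donson, a protein of DNA replication, and Txn1, with r from 0.981 to 0.985. Hnrnpa2b1 averaged 1017 ± 10.2 CPM in KO and 1291 ± 36.2 CPM in WT (SD, n = 3 each), a far smaller step than that of Tgm2. Aen had 0 counts in every KO library and 10.8 ± 0.325 CPM in WT, and Donson had 1 count in all KO libraries together and 30.2 ± 12.99 CPM in WT. Of the 10 genes, 5 were also among the first 10 with a prior count of 0.5, and 2 were among the 16 genes tied at the highest Spearman rank correlation. Txn1 and Cyp2j6 were the only ones of the 10 that passed the test, both lower in KO, against 0.22% of all tested genes. The 10 were ranked on the same KO and WT values that the test uses, so this count is a description.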

How the data were processed

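Ribosome-protected fragments of 6 ID8 libraries were analysed, 3 KO and 3 WT, from 1 table of raw counts per Ensembl gene that the authors deposited. Per the labels' protocols, adapters were trimmed with Cutadapt, reads of 25 to 34 nt were kept, Bowtie took out rRNA and tRNA reads, and HISAT2 (genome, GRCm38) and Bowtie (transcriptome) placed what remained. Among the tools in the submitters' processing notes are also featureCounts and DESeq2. No source used here gives the annotation, strand setting or treatment of duplicate reads. Total counts were 1687466 to 3126208 per library, and intervals and limits cover counting error only.

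Of 53465 identifiers, 53360 matched GENCODE M21, which gave symbols, transcripts and coding sequences. Counts were fitted with edgeR 4.0.16 (TMM, filterByExpr, robust quasi-likelihood, Benjamini-Hochberg at 0.05), without a replicate block, in R 4.3.3. Fold changes are KO minus WT. Alternatives were DESeq2 1.42.0, limma-voom (limma 3.58.1), other scalings and count filters, counts divided by the modal count, a replicate block and leaving out each library. The modal count is the highest interior peak of a library's histogram of gene counts (kernel bandwidth 3, counts 8 to 150).

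On simulated counts with 200 changed genes in the same 8200 genes, edgeR recovered 0.896% of 2-fold, 17.6% of 4-fold and 38.2% of 8-fold changes. At 200 CPM or more it recovered 5.88%, 97% and 100%, in the same order, and 4.57% of calls were false. The shares at 200 CPM or more rest on 34, 33 and 30 changed genes over 5 simulations. Simulated counts were drawn without the modal peak of the real libraries, so these rates need not hold for them.

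Members and gene lists were chosen with earlier results of these data known. Named were Tgm2, Nat10, its family, the 12 nearest tested genes, up to 5 genes of lowest p from each list, the 10 genes most like it, the 4 genes above and 4 below it in WT, the 5 lowest and 3 highest genes of similar WT level, and the genes under 1 modal count in 1 group. Itgb1, Itgb3 and the 3 genes added at 3 modal counts were named after their values were seen. So were the mesothelial markers with counts in WT alone and the untested neighbours. A few genes that this rule takes are not reported here. No promoter or protein sequence of Tgm2 was used here.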

Additional observations from a re-analysis of the deposited data

How the results depend on the processing

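The fitted log2 fold change of Tgm2 lay between -8.11 and -6.66 in every setting, and its rank of 1 among genes of similar WT level held in all settings run. The count of called genes, 33 in all, 15 higher and 18 lower in KO, depended on the setting. DESeq2 called 237 (107 higher, 130 lower), no count filter 91 (49 higher, 42 lower), and molecule equivalents 110 (57 higher, 53 lower) of 968 tested, while library totals gave 27 higher. Without 1 library the counts were 6 to 29 in all, 3 to 15 higher and 3 to 14 lower.

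The list counts below stand beside the calls over all tested genes of the same setting, given above. Of the surface and matrix list, DESeq2 called 3 higher and 1 lower of 22 tested. Members called higher were 1 of 22 with library totals, 2 of 29 with no filter and 3 of 10 with molecule equivalents. Of the intracellular list, 1 was called higher by DESeq2 and by limma-voom, of 25 tested each, and with molecule equivalents, of 15 tested. DESeq2 called 5 of 25 lower, and 1 to 3 were called lower without 1 library, of 25 to 26 tested. Of the retinoid list, DESeq2, with 11 tested, and no filter, with 19 tested, each called 1 higher and 1 lower. Without 1 library, 0 to 1 were called higher, of 12 to 13 tested. Of the mesothelial list, 2 were called higher by DESeq2, of 8 tested, and with molecule equivalents, of 5 tested. With a minimum of 50 counts, 1 of 8 was called lower. Without 1 library, 0 to 1 were called higher and 0 to 2 lower, of 8 to 10 tested. DESeq2 called 1 gene lower within 1 Mb of Tgm2, of 13 tested. Genes under 1 modal count in KO numbered 5 at 3 modal counts, 1 at 10, and 2 to 11 without 1 library; the 11 came without WT replicate 3. The opposite set had 0 at 10 modal counts. Of the 10 genes most like Tgm2, 5 were shared with a prior count of 0.5 and 2 with Spearman rank correlation.

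The named genes tested in the main fit gave 926 values under other settings. Of these, 828 kept their direction and side of the threshold, 32 lost the call, 43 gained it and 23 changed sign. All 23 came from genes that did not pass the test. For Nat10 the log2 fold change was 0.019 in limma-voom and 0.026 with library totals, and -0.35 to 0.35 without 1 library. For Mthfd1 it was 0.044 in limma-voom, 0.068 with library totals, 0.20 with molecule equivalents and 0.022 with the replicate block, and -0.22 to 0.32 without 1 library. For Sf1 it was 0.025 with library totals and 0.053 with molecule equivalents, and -0.19 to 0.089 without 1 library. For Gpm6a it was 0.028 with library totals, and -0.27 to 0.11 without 1 library. Dhx35 gave -1.29 in limma-voom and -0.53 with the replicate block. Without 1 library, Src gave -0.21 to 0.67, Rpn2 -0.44 to 0.0036, Tti1 -0.41 to 1.63 and Rbl1 -0.21 to 0.53. The libraries whose absence turned the sign were WT replicate 3 and KO replicate 2 for Nat10 and Mthfd1, WT replicate 3 and KO replicate 3 for Sf1, WT replicate 2 and KO replicate 3 for Gpm6a, KO replicate 2 for Src and Rpn2, and KO replicate 3 for Tti1 and Rbl1. The cause was not tested.

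No pairing of the samples by replicate number was seen. Libraries of a group varied widely (common coefficient of variation 0.99 in the edgeR fit), so this check cannot exclude a pairing. The correlations of deviations between KO and WT libraries of the same number were -0.017, -0.0026 and -0.0067, and the fit with the replicate block called 38 genes, 19 higher and 19 lower. KO counts of Tgm2 lie below the modal count, so its fold changes rest on 13 counts. In the simulated counts, 2-fold changes were mostly not recovered with 3 libraries per group.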
